A study of Mus musculus with 9 samples.

Results

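The plasma proteins that the liver secretes were followed in TAMH cells, hepatocytes of TGF-alpha transgenic mice kept as a line, exposed to acetaminophen (APAP) or to its meta regioisomer AMAP. The list names 37 genes for the proteins they encode, and its members were taken as the probe sets that carry 1 of these gene symbols. Of the 37, 35 had such a probe set, out of 12393 genes on the arrays, and C3 and Trf were not analysed here. A gene with several probe sets was represented by the one with the highest mean over the 9 arrays. A gene is called expressed where that mean reached 5.65 on the log2 scale, the median of all values, which held for 27 members and for 6722 genes in all.

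The groups were APAP at 2 mM, AMAP at 2 mM and control medium, each after 2, 6 or 24 h, with 1 array for each treatment and time, and the labels give C57BL/6 as the strain and liver as the tissue of all of them. The hydroxyl of the aromatic ring is para to the amide in APAP and meta to it in AMAP, with no other difference in structure. The title of the study names AMAP as less hepatotoxic, and the comparison asks how expression differs between them. Cells of a treatment were grown in 2 dishes, the line stands for no whole liver, and a difference between 2 arrays has no replicate check, so differences at 1 time are given as values with no p.

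Most proteins of blood plasma other than immunoglobulins are made by hepatocytes, which fold them in the endoplasmic reticulum and release them without storing them. They include albumin and other carriers, the apolipoproteins that package lipid, the clotting factors and their inhibitors, and complement. In an acute-phase response the liver makes more of some, such as the fibrinogen chains, and less of others, such as albumin and transthyretin. In the adult liver their genes are driven together by factors of the HNF1, HNF4, FOXA and C/EBP families.

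The line carried the products its label implies, in part. Of 15 hepatocyte markers outside the list 8 were expressed. They were the keratins Krt8 and Krt18, Cps1, the entry enzyme of the urea cycle, and Tat, Fah, Cyp3a11, Glul and Tfr2. Tdo2, Hpd, Asgr1, G6pc, Pck1, Cyp2e1 and Arg1 lay below the median of all values. No endothelial marker of 8 was expressed, 1 of 8 macrophage markers was (Cd14), and 1 of 8 stellate cell and fibroblast markers (Dcn). The mean level of the macrophage markers ranged over 4.70 to 5.11 in APAP, 4.57 to 4.89 in AMAP and 4.64 to 4.76 in control arrays, and that of the stellate cell and fibroblast markers over 4.62 to 4.99, 4.57 to 4.91 and 4.55 to 4.77. Of the cholangiocyte markers 4 of 5 were expressed, and Krt19 and Krt7 were higher in APAP than in control at 2 h by 2.11 and 1.44 log2, while Cftr differed by -1.57 for AMAP against control and for Sox9 the APAP array lay 2-fold below that of AMAP, both at 24 h. Of 8 foetal liver and progenitor markers 5 were expressed, Igf2, Krt19, Sox9, Cd24a and Prom1. In APAP at 24 h 3 of the 5 were above control, where 60.4% of all expressed genes were. These were Prom1, Igf2 and Krt19, by 1.22, 0.74 and 0.61. The other 2 were below control, Sox9 by -0.53 and Cd24a with 10.36 against 10.73. The part of such cells or states in the values below was not tested.

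Expression of the module was broad but not complete. Albumin (Alb) and alpha-fetoprotein (Afp), its foetal counterpart, lay between 11.95 and 13.28 on every array. Of the 35 measured members 8 were below the median of all values, namely the apolipoproteins Apoa4 and Apoc3, the clotting factors F5, F7 and F10, antithrombin (Serpinc1) and the heavy chains Itih1 and Itih3. Just inside that limit were Plg, Fetub and Serpina10, with means of 5.86, 5.92 and 6.08, and just outside it Apoc3, F5 and F10, with 5.51, 5.45 and 5.41. Serpinc1 stayed between 4.20 and 4.50 and F7 between 3.64 and 5.16. Itih1 lay between 3.76 and 4.68 and Itih3 between 3.78 and 4.77.

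**Figure D1:**
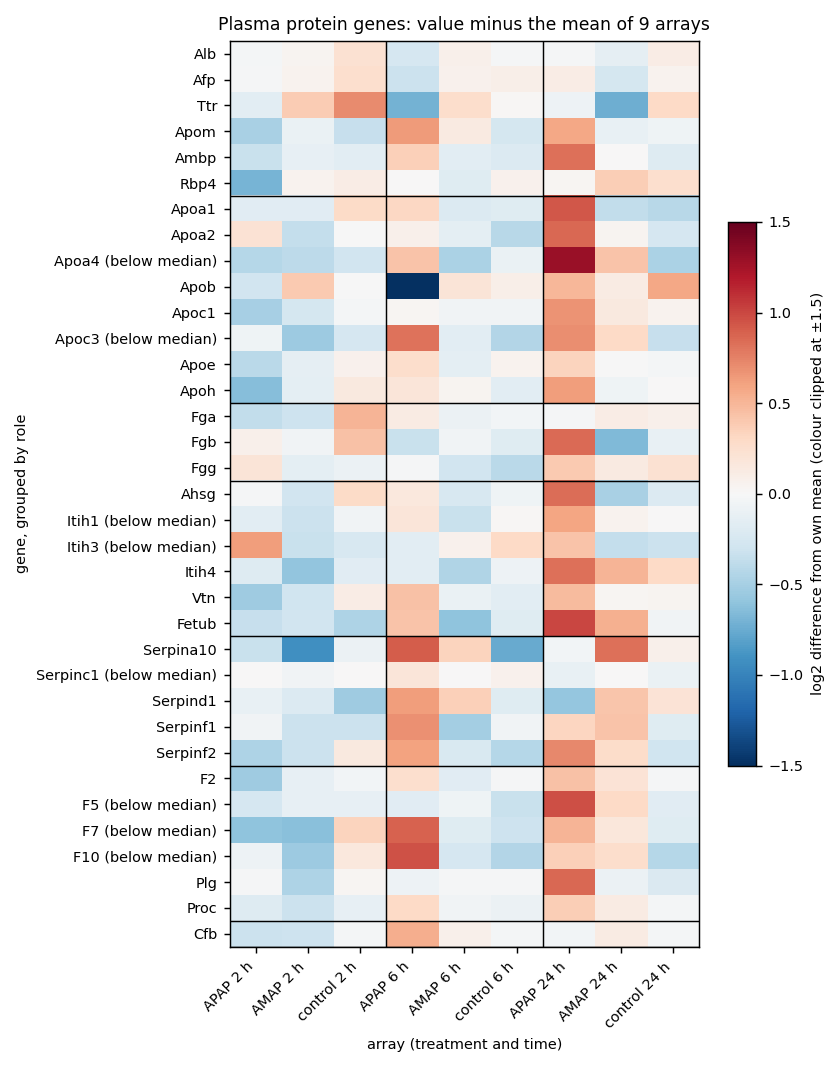
Log2 level of each of the 35 measured members (rows, grouped by role) on the 9 arrays (columns, by time and then treatment), as the difference from the gene's own mean, with colours clipped at 1.5 log2. The APAP 24 h column is the reddest, with 16 of the 27 expressed members at their highest there, and Apob in APAP at 6 h is the darkest blue cell.

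Several members lie beside each other in the genome and, in part, share letters in their promoters. Alb and Afp are neighbours, as are Fga, Fgb and Fgg, Apoa1, Apoc3 and Apoa4, Apoe and Apoc1, Ahsg and Fetub, and Itih1, Itih3 and Itih4. Promoters of 29 listed genes were matched by symbol in a RefSeq table of build GRCm38.p6, and 250 bases before each start were searched on both strands. The half-site of HNF1, GTTAAT, was in 7 of the 29 (Alb, Afp, Apoe, Fga, Fgb, Itih1 and Vtn), against 7.49% of 27025 genes. The C/EBP motif TTGCNNAA was in 9, against 10.8% of genes, and the FOXA core TGTTTAC in 4, against 3.54%. The HNF4 core CAAAGTCCA was in 0, against 0.451%, and TATAAA in 7, against 14.3%. A match is a run of letters and was not tested as a site.

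Shown are the 150 bases before the start of the albumin pair, the 3 fibrinogen chains, which are subunits of 1 protein but differed in level at 24 h, and Apoa1 and Ahsg, which were among the members farthest above control in APAP. Capitals mark the matches to GTTAAT, TTGCNNAA and TATAAA on either strand, and no 2 marked runs overlap. The windows are chr5:90460720-90460869 and chr5:90490564-90490713 for Alb and Afp, chr3:83026003-83026152, chr3:83049864-83050013 (minus strand) and chr3:83007574-83007723 for the fibrinogen genes, chr9:46228480-46228629 for Apoa1 and chr16:22891865-22892014 for Ahsg, on the plus strand except Fgb.
Alb: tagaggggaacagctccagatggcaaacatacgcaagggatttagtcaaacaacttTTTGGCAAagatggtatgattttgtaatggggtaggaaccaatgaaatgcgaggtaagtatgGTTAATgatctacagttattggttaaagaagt
Afp: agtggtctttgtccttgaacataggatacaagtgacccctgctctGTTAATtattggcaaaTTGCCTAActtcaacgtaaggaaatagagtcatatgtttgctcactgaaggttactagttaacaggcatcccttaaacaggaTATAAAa
Fga: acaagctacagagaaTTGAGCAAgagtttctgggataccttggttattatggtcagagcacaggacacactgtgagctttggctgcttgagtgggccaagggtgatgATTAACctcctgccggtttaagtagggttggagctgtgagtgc
Fgb: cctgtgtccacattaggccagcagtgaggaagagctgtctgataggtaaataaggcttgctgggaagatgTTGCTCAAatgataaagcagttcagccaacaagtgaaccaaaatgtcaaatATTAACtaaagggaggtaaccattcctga
Fgg: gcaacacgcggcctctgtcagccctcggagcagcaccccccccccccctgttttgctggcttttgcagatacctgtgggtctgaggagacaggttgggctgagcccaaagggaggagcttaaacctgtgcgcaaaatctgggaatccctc
Apoa1: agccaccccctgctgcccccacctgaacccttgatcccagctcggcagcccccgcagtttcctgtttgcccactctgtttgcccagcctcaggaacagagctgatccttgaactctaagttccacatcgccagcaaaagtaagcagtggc
Ahsg: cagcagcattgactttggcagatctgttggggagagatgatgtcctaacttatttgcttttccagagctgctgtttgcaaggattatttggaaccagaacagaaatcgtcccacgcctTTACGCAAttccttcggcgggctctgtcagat
Alb has the half-site at -32 to -27 and the C/EBP motif at -94 to -87, and Fgb has them at -29 to -24 and -80 to -73, counted from the start. Fga holds both as well, while the windows of Fgg and Apoa1 hold none of these letters.

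Before the comparisons, 3 arrays have to be named. On APAP 6 h, APAP 24 h and AMAP 24 h the middle probe set of the bacterial control transcript dap read low against its 3′ probe set, with differences of -1.72, -1.58 and -1.94 log2, against -0.60 to -0.44 on the other 6. Their lower quartiles of all values were 3.92, 3.81 and 3.84, against 3.50 to 3.63. Every comparison at 6 and 24 h except AMAP against control at 6 h uses 1 or both of them, so those comparisons have no value without these arrays, and the part of the arrays in the differences was not tested. APAP against AMAP at 24 h compares 2 of the 3 with each other. In RNA from a whole dish, fewer cells of a type and less RNA per cell cannot be told apart.

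Taken by time, the module read somewhat lower in both compounds than in control at 2 h, the control array with the highest median level of the members. It was higher in APAP at 6 and 24 h. At 2 h the 27 expressed members had a median difference of -0.29 log2 in APAP and -0.23 in AMAP against control, while all expressed genes had medians of -0.01 in each. At 6 h the members' medians were 0.35 in APAP and 0.045 in AMAP, against -0.05 and -0.10 over all expressed genes. At 24 h they were 0.46 and 0.09, against 0.12 and 0.10. The median for AMAP at 24 h turned to -0.0067 when each array was centred on its median.

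Between the regioisomers the members' median was -0.06 at 2 h, 0.30 at 6 h and 0.37 at 24 h, where all expressed genes had -0.003, 0.07 and 0.02. Of the 27, 21 were higher in APAP than in AMAP at 6 h and 21 at 24 h, or 77.8% each, against 54.7% and 52.2% of all expressed genes. Centring each array on its median moved the difference of all expressed genes from control at 24 h by -0.13 for APAP and -0.10 for AMAP. Unless stated, differences of these comparisons are given as deposited, without this shift.

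**Figure D2:**
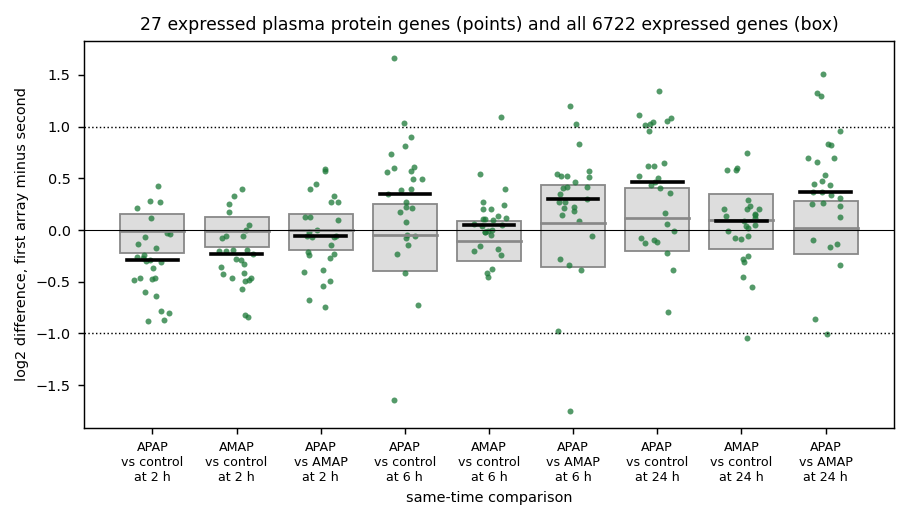
Log2 difference of the 27 expressed members (green points, black bar at their median) in each of 9 same-time comparisons, beside the quartiles and median of all 6722 expressed genes (grey boxes); dotted lines mark 2-fold. The black bars lie below 0 in all 3 comparisons at 2 h, at 0.35 for APAP against control at 6 h and at 0.46 at 24 h.

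At 2 h no member was 2-fold apart from control by the probe set used, but most members read lower than in control in both compounds. For APAP 5 of 27 expressed members were higher, or 18.5%, against 45.2% of all expressed genes; for AMAP 6 were higher, or 22.2%, against 45.1%. The fibrinogen chain Fga was lower in both, by -0.88 and -0.83, and transthyretin (Ttr) by -0.87 and -0.33. In APAP retinol-binding protein (Rbp4) differed by -0.80, and Apoh, a phospholipid-binding glycoprotein, by -0.79. Among expressed members the highest differences were 0.43 for APAP and 0.33 for AMAP in heparin cofactor (Serpind1) and 0.39 for AMAP in Apob, while Itih3, below the median of all values, read 0.86 above control in APAP. The expressed members' median level was 9.71 on the control 2 h array, against 9.27 and 9.36 in control at 6 and 24 h. Taken gene by gene the shift was smaller, with median differences in control of -0.05 for 6 against 2 h and -0.03 for 24 against 2 h. All expressed genes had 0.07 and -0.02. In control 8 of 27 were higher at 6 h than at 2 h, or 29.6%, against 60.1% of all expressed genes. For 24 against 2 h 12 were, or 44.4%, against 41.9%. The part of the control 2 h array in these differences was not tested.

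By the probe set used for each gene no member, 0 of 35, was 2-fold higher or lower in the 3 comparisons at 2 h. The other sets of Ttr read -1.21 and -1.17 for APAP against control. For APAP against control 0.508% of all genes were 2-fold higher and 0.621% lower, for AMAP against control 0.75% and 0.242%, and for APAP against AMAP 0.282% and 0.694%. The count takes genes with a log2 difference of at least 1 whose higher array reached the median of all values. Between control arrays of different times 0 members were 2-fold apart, where 0.541% of genes were for 6 against 2 h, 0.476% for 24 against 2 h and 0.67% for 24 against 6 h. Of the 27 expressed members 11 had their lowest level on the APAP 2 h array, as did 14.9% of all expressed genes.

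In APAP at 6 h, 4 members were 2-fold higher, against 0.96% of all genes, and 1 was 2-fold lower, against 2.93%. The higher ones were the factor X inhibitor Serpina10, F10 itself, Apoc3, an inhibitor of lipoprotein lipase, and antiplasmin (Serpinf2); Apob, the structural protein of very-low-density lipoprotein, was the lower one. The means of F10 and Apoc3 lie below the median of all values, and among expressed genes 2 of 27 members were 2-fold higher, against 0.893% of genes. In AMAP, Serpina10 was the 1 member 2-fold higher, against 0.589% of genes, and 0 were lower, against 0.137%. In APAP all 4 expressed serpins lay above control, at a median of 0.92, and in AMAP 3 of 4 did, at a median of 0.37. APAP lay 2-fold above AMAP in F10, pigment epithelium-derived factor (Serpinf1) and Fetub, where 2.27% of genes did, and 2-fold below it in Apob, where 4.49% did.

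In APAP at 24 h, 10 members were 2-fold higher, against 1.93% of all genes, and 0 were lower, against 2.15%. They were Apoa4, Apoa1, F5, Apoa2, Plg, Fetub, Apoc3, Ahsg, Ambp and Serpinf2, with Apoa4 at 1.77, Apoa1 at 1.35 and the other 8 between 1.01 and 1.13. Apoa4, F5 and Apoc3 reached the median of all values on 1 to 3 arrays only; among expressed genes the count was 7 of 27 members, against 2.75% of genes. The 10 became 5 after cyclic loess (Apoa4, Apoa1, Ambp, Ahsg and Apoa2) and 2 after median centring (Apoa4 and Apoa1), and 0 were lower under either. Over all genes 239 were higher and 267 lower as deposited, 126 and 321 after loess and 128 and 349 after centring.

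In AMAP at 24 h no member was 2-fold higher, 0 of 35, against 0.412% of genes, and Ttr was 2-fold lower, against 1.48%. APAP lay 2-fold above AMAP in the fibrinogen chain Fgb, Ahsg and Apoa1, where 1.04% of genes did, and 2-fold below it in Serpind1, where 0.839% did. Of the 27 expressed members 16 were at their highest on the APAP 24 h array, as were 20.7% of all expressed genes. That array is 1 of the 3 that stand apart.

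Among the carriers, Alb, the main protein of plasma and a carrier of fatty acids, had levels of 13.02, 12.80 and 13.04 at 2, 6 and 24 h in APAP, 13.09, 13.14 and 12.92 in AMAP and 13.28, 13.03 and 13.17 in control. The 9 values span 0.48 log2, and APAP was below control at each time, by -0.26, -0.23 and -0.13. Alb lay near the top of the scale, since the highest value of an array was between 13.12 and 13.34. The part of this in its small span was not tested. Afp had levels of 12.26, 11.95 and 12.39 in APAP, 12.33, 12.34 and 12.01 in AMAP and 12.53, 12.36 and 12.33 in control. AMAP lay below control at each time for Afp, by -0.21, -0.02 and -0.31.

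These values of Afp came from the probe set with the highest mean, and its other probe sets read differently at 6 and 24 h. The next one was 1.28 above control in AMAP at 6 h, where the first differed by -0.02. In APAP at 6 h it differed by -1.11, where the first differed by -0.41. It differed from control by -2.28 in APAP and -2.26 in AMAP at 24 h, where the first differed by 0.06 and -0.31, and another by -0.90 and -0.23. This second set read 9.09, 9.09 and 9.11 on APAP 6 h, APAP 24 h and AMAP 24 h, the 3 arrays that stand apart. On the other 6 it read 10.21 to 11.49, and the part of the arrays in its differences was not tested. At 2 h the 3 probe sets differed by -0.27, -0.11 and 0.02 for APAP. At 24 h all 3 were thus lower than control in AMAP, by unequal amounts, while for APAP the direction depends on the probe set.

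Ttr, the carrier of thyroxine that also binds Rbp4, had levels of 11.48, 10.93 and 11.56 in APAP, 12.02, 11.90 and 10.90 in AMAP and 12.35, 11.66 and 11.94 in control. It was below control in APAP at each time, by -0.87, -0.73 and -0.38, and in AMAP by -1.04 at 24 h but not at 6 h, where it read 0.25 higher. All 3 probe sets of Ttr were lower in APAP at 2 h, by -0.87, -1.21 and -1.17. At 24 h they read -1.04, -0.05 and -1.20 for AMAP and -0.38, 0.52 and -0.48 for APAP, so that the second did not follow the others.

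Ambp, the common precursor of bikunin and alpha-microglobulin, had levels of 9.93, 10.63 and 11.09 in APAP, 10.15, 10.10 and 10.27 in AMAP and 10.10, 10.06 and 10.07 in control. The control arrays lay close together, AMAP was at most 0.20 above them, and APAP was 0.57 above control at 6 h and 1.03 at 24 h. Rbp4 ranged over 10.09 to 11.16, with its lowest level in APAP at 2 h. Apom, which carries sphingosine phosphate on lipoproteins, ranged over 7.47 to 8.59 and was above control in APAP by 0.90 at 6 h and 0.64 at 24 h; its other probe set was above control at both times as well, by 1.31 at 24 h.

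**Figure D3:**
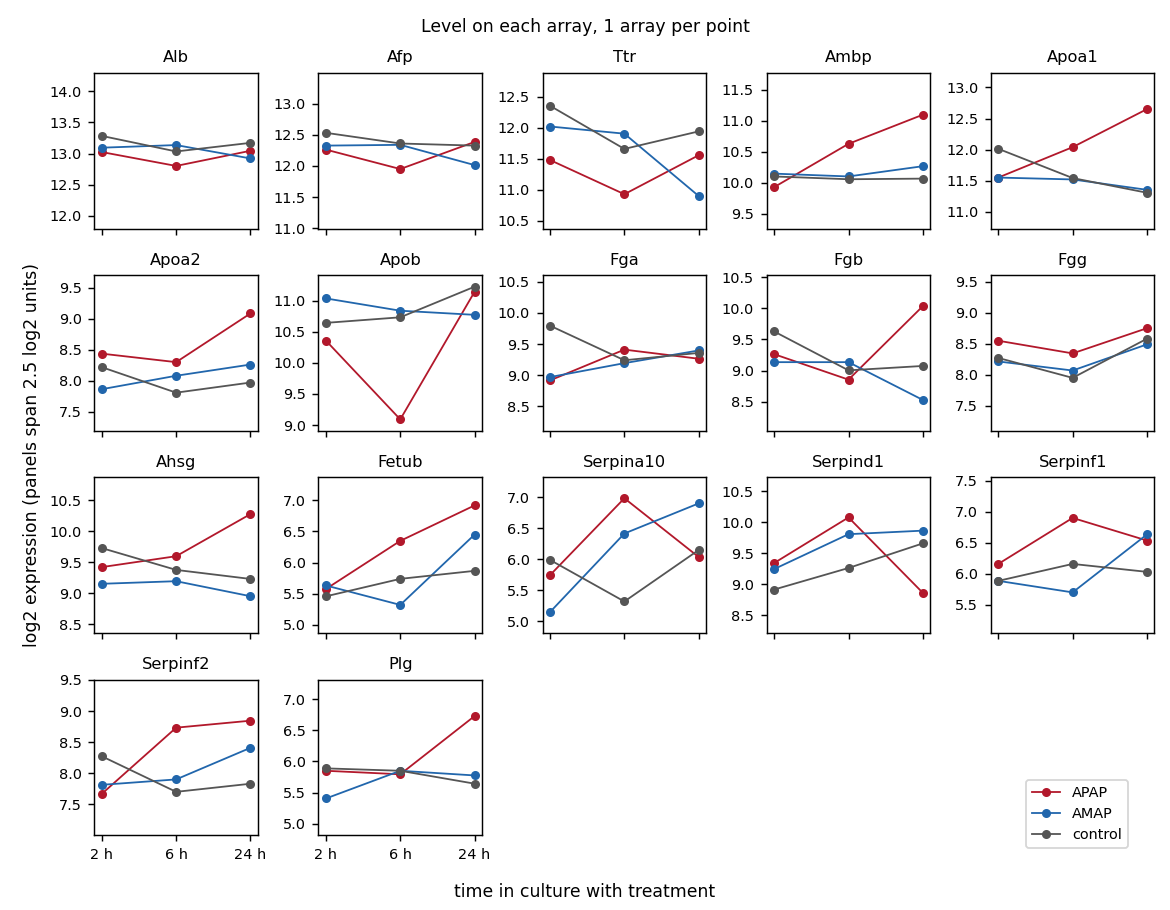
Log2 level of 17 members on each array, 1 point per array, for APAP (red), AMAP (blue) and control (grey) at 2, 6 and 24 h; every panel spans 2.5 log2 units around its own values. Red lies highest at 24 h in Ambp, Apoa1, Apoa2, Fgb, Ahsg, Fetub, Serpinf2 and Plg, and Apob dips to 9.09 in APAP at 6 h.

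Of the apolipoproteins, Apoa1, the main protein of high-density lipoprotein, was the expressed member farthest above control in APAP at 24 h, 2.54-fold. Its levels were 11.55, 12.04 and 12.65 in APAP, 11.55, 11.52 and 11.35 in AMAP and 12.01, 11.54 and 11.31 in control. Both compounds differed from control by -0.46 at 2 h, after which APAP was above it by 0.50 and 1.35 and AMAP differed by -0.02 and 0.05. All 4 probe sets of Apoa1 were higher in APAP at 24 h, by 1.35, 0.99, 1.06 and 1.15.

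Apoa2, which also belongs to high-density lipoprotein, had levels of 8.44, 8.30 and 9.09 in APAP, 7.87, 8.08 and 8.26 in AMAP and 8.22, 7.81 and 7.97 in control. APAP was the highest of the 3 treatments at each time, and the gap to control was 0.22, 0.49 and 1.11. Apob had levels of 10.36, 9.09 and 11.15 in APAP, 11.04, 10.84 and 10.77 in AMAP and 10.64, 10.73 and 11.23 in control. Its value in APAP at 6 h, 3.12-fold below control, was the lowest of the 9 by more than 1 log2, and at 24 h APAP and control differed by -0.08. Apob has 1 probe set with its symbol, so no other one could be read.

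Apoc1, a small exchangeable apolipoprotein, ranged over 10.09 to 11.27 and Apoe, a ligand of the LDL receptor, over 11.19 to 11.92. Apoh ranged over 9.59 to 10.86. Each of these 3 was lowest in APAP at 2 h and highest in APAP at 24 h. At 24 h 5 of the 6 expressed apolipoproteins were above control in APAP, with a median of 0.62, and 4 of 6 in AMAP, with a median of 0.03. Of all expressed genes 60.4% and 59.7% were. In APAP all 6 lay above AMAP at that time, with a median of 0.61, where 52.2% of all expressed genes did.

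Among the apolipoproteins below the median of all values, Apoa4, which joins chylomicrons and high-density lipoprotein, ranged over 4.03 to 5.80 and Apoc3 over 4.97 to 6.33. At 24 h Apoa4 read 1.77 above control in APAP and 0.90 in AMAP, and its other probe set 0.96 and 0.73. Apoa1, Apoc3 and Apoa4, neighbours in the genome, were each 2-fold higher in APAP at 24 h, by 1.35, 1.05 and 1.77, while Apoa5, the next gene of that cluster, differed by 0.15 at a level below the median of all values.

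Fibrinogen is built from the products of Fga, Fgb and Fgg, and the 3 genes did not keep together over these arrays. Fga had levels of 8.91, 9.41 and 9.26 in APAP, 8.97, 9.19 and 9.40 in AMAP and 9.79, 9.24 and 9.36 in control, so that control at 2 h stood above the other 8 arrays. Fgb had levels of 9.26, 8.85 and 10.04 in APAP, 9.13, 9.13 and 8.53 in AMAP and 9.63, 9.00 and 9.07 in control. Its highest and lowest values were both at 24 h, APAP and AMAP, which were 2.85-fold apart.

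Fgg had levels of 8.55, 8.34 and 8.75 in APAP, 8.21, 8.07 and 8.49 in AMAP and 8.27, 7.95 and 8.58 in control. APAP was above control at each time for Fgg, by 0.28, 0.39 and 0.17. For APAP against AMAP at 24 h the chains differed by -0.13 (Fga), 1.51 (Fgb) and 0.26 (Fgg). Each chain was read from 1 probe set.

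In the group of fetuins, inter-alpha-inhibitor chains and vitronectin, Ahsg, or fetuin-A, which keeps calcium phosphate from precipitating in blood, had levels of 9.42, 9.60 and 10.27 in APAP, 9.15, 9.19 and 8.95 in AMAP and 9.73, 9.38 and 9.23 in control. AMAP was below control at each time, by -0.57, -0.18 and -0.28, and APAP above AMAP at each time, by 0.27, 0.40 and 1.32. Fetub, a fetuin that inhibits a metalloproteinase, had levels of 5.58, 6.35 and 6.92 in APAP, 5.63, 5.32 and 6.45 in AMAP and 5.46, 5.74 and 5.87 in control. It reached the median of all values on 5 of the 9 arrays, and APAP was above control at each time.

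Itih4, a heavy-chain relative of the acute phase, ranged over 6.76 to 8.17 and was higher at 24 h than at 2 h in each treatment. Vtn, or vitronectin, an adhesion protein of plasma and matrix, ranged over 9.07 to 10.07. It was lowest in APAP at 2 h and highest in APAP at 24 h, where its 2 probe sets differed from control by 0.43 and 0.84. In AMAP at 24 h they differed by -0.01 and 0.93, and the second was highest there, at 9.20. All 4 expressed genes of this group were above control in APAP at 24 h, with a median of 0.78, and 2 of 4 in AMAP, with a median of 0.10. Of all expressed genes 60.4% and 59.7% were, and for Vtn in AMAP the size and direction depend on the probe set.

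Among the serpins, protease inhibitors of plasma, Serpina10, the protein Z-dependent inhibitor, had levels of 5.75, 6.98 and 6.04 in APAP, 5.15, 6.42 and 6.90 in AMAP and 5.99, 5.32 and 6.15 in control. It was above control at 6 h in both compounds, by 1.66 and 1.09, and its control value at 6 h was the lowest of the 3 control arrays. Serpind1, the heparin cofactor that inhibits thrombin, had levels of 9.34, 10.07 and 8.86 in APAP, 9.24, 9.81 and 9.86 in AMAP and 8.91, 9.26 and 9.66 in control. APAP was above control at 2 and 6 h, by 0.43 and 0.81, and below it at 24 h, by -0.80, while AMAP stayed above control throughout.

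Serpinf1, which restrains the growth of blood vessels, had levels of 6.16, 6.90 and 6.54 in APAP, 5.89, 5.70 and 6.64 in AMAP and 5.89, 6.16 and 6.03 in control. Its other probe set lay between 2.84 and 3.57, below the median of all values. Serpinf2, the main inhibitor of plasmin, had levels of 7.67, 8.73 and 8.85 in APAP, 7.81, 7.90 and 8.41 in AMAP and 8.27, 7.70 and 7.83 in control. It lay below control in both compounds at 2 h, by -0.60 and -0.46, and above it in APAP by 1.03 and 1.01 at 6 and 24 h.

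Of the zymogens of clotting and fibrinolysis, plasminogen (Plg), the precursor of plasmin, had levels of 5.85, 5.79 and 6.73 in APAP, 5.40, 5.85 and 5.77 in AMAP and 5.89, 5.85 and 5.64 in control. APAP at 24 h stood above the other 8 arrays, the next of which was control at 2 h. Prothrombin (F2) ranged over 8.76 to 9.73 and protein C (Proc), an anticoagulant protease, over 7.15 to 7.84, both highest in APAP at 24 h. Complement factor B (Cfb), a protease of the alternative pathway, ranged over 10.38 to 11.24 and was highest in APAP at 6 h.

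Of the factors below the median of all values, F5, a cofactor of prothrombin activation, ranged over 5.12 to 6.42 and was highest in APAP at 24 h, 1.13 above control, where its other probe set read 0.25. F10, the protease that cleaves prothrombin, ranged over 4.86 to 6.36 and was highest in APAP at 6 h, where its 3 probe sets differed from control by 1.40, 0.88 and 0.00. F7, which starts clotting with tissue factor, was also highest there but did not reach the median of all values on any array.

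**Figure D4:**
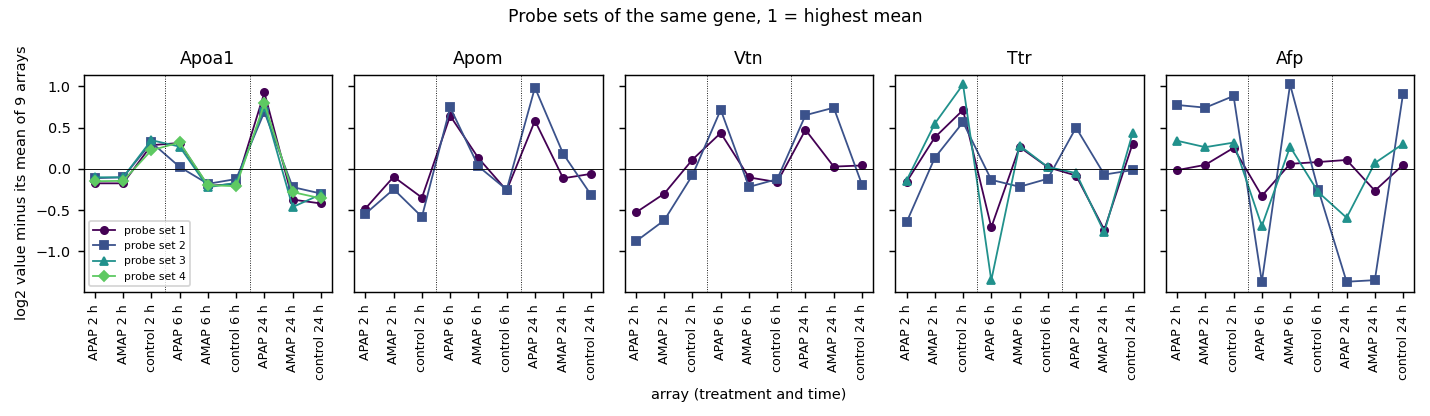
Log2 value of each probe set of Apoa1, Apom, Vtn, Ttr and Afp that lies above the median of all values, as the difference from its own mean, over the 9 arrays; dotted lines part the times. The 4 sets of Apoa1 run together and are highest in APAP at 24 h, while set 2 of Afp differs from control by -2.28 in APAP and -2.26 in AMAP at 24 h and set 1 by 0.06 and -0.31. Set 2 of Afp is lowest on APAP 6 h, APAP 24 h and AMAP 24 h, the arrays that stand apart.

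Along the time course the arrays in APAP differed most. From the APAP 2 h array to the APAP 24 h array 26 of 27 expressed members were higher at the later time, with a median of 0.77, where all expressed genes had 0.11; Serpind1 was the exception. In AMAP 19 of 27 were higher at 24 h than at 2 h, with a median of 0.33, and in control 12, with a median of -0.03. All expressed genes had medians of 0.08 in AMAP and -0.02 in control. In control 41.9% of them were higher at 24 h, and this share was not computed for APAP and AMAP. The spread between single arrays within a time is unknown, and the APAP 24 h array stands apart.

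Some members kept 1 direction at all 3 times. In APAP against control Apoa2, Fgg, Serpinf1 and Fetub were higher at each time and Alb, Ttr, Apob and Rbp4 lower, 4 of 27 each or 14.8%, against 15.7% and 14.4% of all expressed genes. In AMAP against control Ambp and Serpind1 were higher and Afp and Ahsg lower, 7.41% each, against 4.64% and 8.23%. Apoa2, Fgg, Ahsg, Proc and Itih4 were higher in APAP than in AMAP at each time, 5 of 27 against 807 of 6722 genes, and 0 were lower at each time, against 9.91%. The shares for APAP against control lie near those of all genes. These directions hold for the probe set used, and for Ttr and Afp they depend on it. The second set of Ttr read -0.01 and 0.52 in APAP at 6 and 24 h. For Afp in AMAP at 6 h the set used differed by -0.02 and the next ones by 1.28 and 0.55.

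Effects averaged over the times were tested next. A linear model of all 9 arrays, fitted by limma to the 6722 expressed genes with treatment and time as factors, gave the only test that the design allows. No group was replicated, so its residual spread mixes array noise with changes of the treatment differences over time. A difference that changed with time, such as Apoa1 or Serpind1 in APAP against control, widened that spread. The fit therefore could not test the differences at single times, and its counts decide nothing about them. No member passed an adjusted p of 0.05 for APAP against control, AMAP against control or APAP against AMAP, 0 of 27 each, where 0.0% of all genes did. The same held for 6 against 2 h, 24 against 2 h and 24 against 6 h. At an unadjusted p under 0.05 there were 3, 0 and 2 members for the treatments and 0, 3 and 4 for the times. Over all genes these counts were 516, 30 and 284, and 114, 372 and 206.

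For APAP against control the 3 members were Apoa2, with an average difference of 0.61 (95% confidence interval 0.12 to 1.09), Fetub with 0.59 (0.03 to 1.16) and Ttr with -0.66 (-1.32 to -0.01), each at an adjusted p of 0.634 in limma. The sign was the same at all 3 times for each of them in the probe set used, while the second set of Ttr read 0.52 at 24 h. Without the 3 arrays that stand apart, the averages were 0.37 for Apoa2, -0.03 for Fetub and -0.73 for Ttr, at adjusted p-values of 0.802, 0.999 and 0.590 in limma, with 1 residual degree of freedom. APAP is then its 2 h array alone, which is assumed to vary like the AMAP and control arrays that give the spread. Over the alternatives recomputed for it the adjusted p of Ttr in limma lay between 0.590 and 0.825.

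Between the regioisomers Ahsg was higher in APAP by 0.66 on average (0.09 to 1.24) and Apoa2 by 0.54 (0.05 to 1.02), both at an adjusted p of 0.870 in limma, and without the 3 arrays by 0.17 and 0.42. Apoa1 differed by 0.61 (-0.07 to 1.28) and Fgb by 0.45 (-0.26 to 1.17), and without the 3 arrays by -0.11 and -0.028. A difference that misses the threshold does not show that the compounds act alike, since the members' intervals reached a median of 0.54 log2 to either side. For AMAP against control the interval covered 0 for all 27. For 24 against 2 h Itih4 was farthest from 0, at 0.86 (0.43 to 1.29) and an adjusted p of 0.687 in limma.

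**Figure D5:**
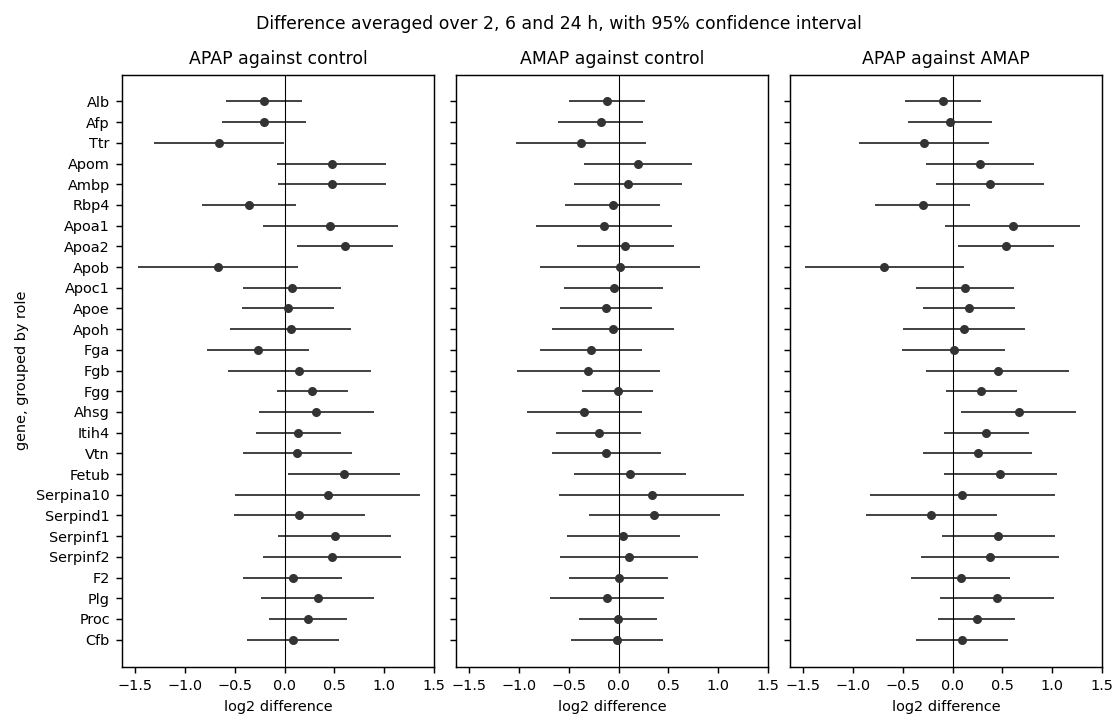
Average log2 difference over 2, 6 and 24 h from the limma fit for the 27 expressed members (rows, by role), for APAP against control, AMAP against control and APAP against AMAP; bars are 95% confidence intervals, not adjusted for the number of genes. The bars of 24, 27 and 25 members cross 0.

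Genes near the members in function were described in the same way. Of 72 other plasma protein genes listed, 59 were measured and 28 expressed, none of them called in the fit. Their medians for APAP against control were -0.22 at 2 h, 0.33 at 6 h and 0.27 at 24 h, with 7, 22 and 18 of 28 higher, and for AMAP against control -0.12, 0.01 and 0.07. The hepatokine Lect2 was 1.55 above control in APAP at 6 h, Apoc4 1.36 above it, and Serpina1c, an inhibitor of elastase, 1.31 above it at 24 h. Orm1, or orosomucoid, lay -1.42 from control in APAP at 24 h.

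Of 14 expressed transcription factors of these genes 0 were called. At 2 h 10 were lower than control in APAP and 11 in AMAP, with medians of -0.34 in both. At 6 h 8 were higher than control in APAP and 13 in AMAP, with medians of 0.07 and 0.22, and at 24 h 9 were lower in each, with medians of -0.06 and -0.22. The factor Foxa1 differed by -1.32 in AMAP at 2 h and Ppara, a receptor for fatty acids, by 1.55 in AMAP at 6 h. Nfia and Nfib were lower in APAP than in AMAP at 6 h, by -2.06 and -1.38.

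Genes that assemble lipoproteins or carry cargo out of the endoplasmic reticulum, 15 expressed, had medians between -0.18 and 0.11 against control, and 0 were called. Mttp, which loads lipid onto the product of Apob, was 0.78 above control in APAP at 6 h, the time of the low Apob value. Sar1b and Sec23a, parts of the coat of export vesicles, were lower in APAP than in AMAP at 6 h, by -1.23 and -1.12, and Sec24d by -0.78 at 24 h. Of the genes that mature clotting factors 4 were expressed. All 4 were below control at 2 h in both compounds, with medians of -0.59 in APAP and -0.165 in AMAP. Of all expressed genes 45.2% and 45.1% were above control. Ggcx, the gamma-carboxylase, differed by -1.10 in APAP at 6 h, and Vkorc1, which recycles vitamin K for it, by -0.71 in APAP at 2 h. Pcsk6 differed by -0.47 in APAP at 2 h and Furin by -0.47 in AMAP at 24 h.

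Receptors that take up plasma proteins and lipoproteins, 5 expressed and 0 called, had medians for APAP against control of -0.70 at 2 h, 0.53 at 6 h and 0.45 at 24 h, and for AMAP against control of -0.15, -0.23 and 0.475. Scarb1, the receptor of high-density lipoprotein, was 1.19 higher in APAP than in AMAP at 6 h, and Fcgrt, which saves albumin from breakdown, 0.94. Tfr2 was 0.76 higher in the same comparison, and Sort1 differed by -0.74 from control in APAP at 2 h. The hepatocyte markers outside the list had medians of -0.42, 0.15 and 0.14 for APAP against control at 2, 6 and 24 h, with 3, 5 and 4 of 8 higher, and of -0.20, 0.03 and 0.14 for AMAP against control, with 2, 4 and 5 higher.

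Sorted by their textbook course in inflammation, 6 expressed genes of the negative acute phase (Alb, Ttr, Rbp4, Apoa1, Ahsg and Igf1) were below control at 2 h in both compounds, 6 of 6 each, with medians of -0.46 and -0.40. At 6 h 3 of 6 were above control in each, with medians of 0.08 and 0.04. At 24 h 4 of 6 were below control in both, while Apoa1 and Ahsg were 2-fold higher in APAP and Ttr 2-fold lower in AMAP. The 11 expressed genes of the positive acute phase, 5 of them members, had medians of -0.06 in APAP and -0.13 in AMAP at 2 h, with 7 and 8 below control. At 6 h the medians were 0.39 and 0.10, with 7 of 11 above control in each, and at 24 h 0.06 and -0.11, with 6 and 4 above control. Of the 13 measured genes of this list 1 was 2-fold higher and 3 were 2-fold lower in APAP at 24 h, against 1.93% and 2.15% of all genes. In AMAP at 24 h 0 were higher and 0 lower, against 0.412% and 1.48%.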

How the data were processed

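RNA of TAMH cells was measured on 9 Affymetrix mouse 430A_2 arrays, 1 for each of 3 treatments at each of 3 times. The authors deposited log2 values per probe set; per the submitters' processing notes they used Affymetrix Expression Console and RMA. Its version, and if RMA was run once for all arrays, is not given in the sources used here. The method sets probe intensities of all arrays to a common distribution, which can hide a change in total RNA, but the deposited lower quartiles still ranged over 3.50 to 3.92.

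The table held 22690 probe sets. The 64 control probe sets were left out of genes; 20380 had 1 symbol in GEO's platform annotation, 691 several and 1555 none. The 35 members had 51 probe sets, 9 of them more than 1 each.

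Differences and counts were computed in Python 3.11.15 and the additive fit (4 residual degrees of freedom, Benjamini-Hochberg over all expressed genes) with limma 3.58.1 in R 4.3.3, after a test on simulated arrays. No group has a second array, so the residual also holds changes of the treatment differences over time, and the number of arrays limits the precision. Expressed members with a 2-fold difference, and Alb, Afp, Ttr, Fga, Fgb and Fgg, are given on every array, and of the other lists up to 4 expressed genes with the largest difference. The members and lists were chosen with earlier results of these data known. Alternatives were another threshold, no filter, the mean of probe sets, cyclic loess, median centring, other priors, no time block and leaving out times or treatments.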

Additional observations from a re-analysis of the deposited data

How the results depend on the processing

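With 1.5-fold in place of 2-fold, the members counted were 6 (0 higher, 6 lower), 2 (0 and 2) and 3 (1 and 2) for APAP against control, AMAP against control and APAP against AMAP at 2 h, against 0 each. At 6 h they were 11 (9 and 2) for APAP against control, against 5, and 7 (5 and 2) for APAP against AMAP, against 4. At 24 h they were 16 (15 and 1), 5 (4 and 1) and 13 (11 and 2), against 10, 1 and 4. With a gene's probe sets averaged, Ttr was 2-fold lower in APAP at 2 h (1 member against 0), APAP against AMAP at 6 h gave 2, against 4, and AMAP against control at 24 h gave 0, against 1. Cyclic loess gave 5 and 0 for APAP and AMAP against control at 24 h, against 10 and 1, and median centring gave 2 for APAP. The cause of these moves was not tested.

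The counts without a filter on low values lay within 1.5 times of those given. The members' medians kept their sign in each of these settings, except AMAP against control at 24 h, which was -0.0067 after median centring. The fit called 0 members and 0 genes in each of 13 settings, with and without the filter, a time block, trended and robust priors, each time, each treatment and the 3 arrays that stand apart, and the lowest adjusted p of a member in limma was 0.484. Leaving out 1 time or treatment gave 0 called in every case. Of 456 differences of named members recomputed in the fit under alternatives, 45 turned their sign. None of the 45 had passed the threshold before, and their values stand in the next paragraph. The fit compares treatments within times, and without this time block 0 members were called as well. By replicate number, no paired analysis was possible because each group holds 1 array. Precision is limited by the 9 arrays, and values below the median of all values carry little signal over background.

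Without the 3 arrays that stand apart, which leaves APAP at 2 h only, APAP against control turned to -0.35 for Apoa1, -0.21 for Fgb, -0.17 for Ambp, -0.21 for Ahsg, -0.44 for Serpinf2 and -0.030 for Fetub. APAP against AMAP then turned to -0.11 for Apoa1, -0.25 for Fga, -0.028 for Fgb, -0.22 for Ambp, 0.044 for Serpind1 and -0.31 for Serpinf2. Both without these arrays and without 24 h, AMAP against control turned to -0.041 for Apoa2, 0.031 for Fgg, -0.23 for Serpinf1, -0.13 for Serpinf2 and -0.12 for Fetub. Without 24 h, APAP against control turned to -0.26 for Fgb, -0.043 for Ahsg and -0.0475 for Plg, and APAP against AMAP to -0.076 for Fgb and 0.18 for Serpind1. Without 6 h, APAP against control turned to -0.18 for both Serpina10 and Serpind1, AMAP against control to -0.032 for Apoa2, -0.030 for Apob and -0.044 for Serpina10, and APAP against AMAP to 0.027 for Alb, 0.15 for Afp, 0.059 for Ttr, -0.093 for Fga and -0.13 for Serpina10. Without 2 h, APAP against control turned to 0.039 for Fga, AMAP against control to 0.012 for Apoa1, 0.0135 for Fgg, -0.17 for Apob and 0.066 for Plg, and APAP against AMAP to -0.15 for Serpina10. Cyclic loess turned AMAP against control to 0.0039 for Fgg and APAP against AMAP to 0.0445 for Afp. These settings use fewer arrays, apart from cyclic loess, for which the cause was not tested.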
